A study of Mus musculus with 9 samples.

Results

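The genes described are 36 genes of cholesterol and fatty acid synthesis and of its control, taken by gene symbol from the 55401 genes measured in mouse spinal cord motoneurons. They comprise 20 enzymes of the sterol pathway, listed below in pathway order, 9 regulators and transport genes, and 7 enzymes of fatty acid synthesis. All 36 symbols were found, each on a single row, and all 36 passed the low-count filter that left 15893 genes for testing.

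RNA of spinal cord motoneurons of wild-type (WT) mice was sequenced by Smart-seq2, which copies whole transcripts from very little RNA. The mice were killed 4 weeks after spinal cord injury (SCI). The SBES group had the injury and synergistic bidirectional electrical stimulation, at 10 Hz in library 1, 15 Hz in library 2 and 20 Hz in library 3. The untrained group had the injury without the stimulation, and the sham group is the control. The labels name 3 mice and 3 libraries per group, but not which mouse or how many cells each library holds. The p-values therefore measure only the spread between libraries, which may be partly technical. Each frequency has 1 library, so a difference between frequencies cannot be told apart from a difference between libraries. In all groups the motoneurons carried a fluorescent tracer the labels call TRDA and were aspirated from slices with glass electrodes. No strain, age or sex is used here.

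Cholesterol is built from acetyl-CoA through mevalonate, isoprenoids and squalene, and then through a series of ring and side-chain changes. The pathway is controlled by the transcription factors encoded by Srebf1 and Srebf2, which are held in the endoplasmic reticulum by Insig proteins while sterols are plentiful and escorted to the Golgi by Scap when they are scarce. The liver X receptors, encoded by Nr1h3 and Nr1h2, respond to oxidised sterols and drive export genes such as Abca1. In the nervous system cholesterol is made locally, because lipoproteins do not cross the blood-brain barrier, and oligodendrocytes and astrocytes make much of it, for myelin and for supply to neurons.

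Levels below are the deposited FPKM divided by the TMM composition factor of each library, so that they can be compared between libraries and, per exonic length, between genes. Gene positions are those of the deposited table, on mm10. Total counts were 11821145 to 17675948 per library. Where 3 values are listed for a group, they are those of its libraries 1, 2 and 3. The 3 libraries numbered 1 stood apart. SBES library 1 had 18.6% of its counts on mitochondrial genes, against 2.47% to 7.36% in the other 8 libraries. Untrained library 1 and sham library 1 had the nuclear RNA Malat1 at 16070 and 15130 CPM, against 514 to 4774 in the other 7. SBES library 1 and sham library 1 had the lowest TMM factors, 0.760 and 0.727. Results are therefore also given without these 3 libraries. The motor neuron marker Chat, the enzyme of acetylcholine synthesis, had levels of 4.56 to 7.17 in SBES, 4.28 to 6.87 in untrained and 4.17 to 7.35 in sham libraries. Mbp, a myelin protein of oligodendrocytes, had levels of 4800 to 7930 in SBES, 3820 to 5840 in untrained and 4700 to 11100 in sham libraries. Every library thus held transcripts of oligodendrocytes beside those of motoneurons. In such samples fewer cells of a type and less RNA per cell cannot be told apart.

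The promoters of the sterol enzymes are shown first, because the SREBP factors act there together with the factor NF-Y. RefSeq promoter windows of GRCm38.p6, 250 bases before to 50 after the start site, were matched to 29 of the 36 genes, and were not matched for Fdps, Fdft1, Scd1, Fads1, Stard4, Scd2 and Sqle. Windows were searched on both strands for TCACNCCAC, the core of the sterol regulatory element, for CCAAT, the NF-Y box, and for GGGCGG, the Sp1 box. Hmgcs1 was the only gene with an unadjusted p under 0.05 in untrained against sham libraries whose window held TCACNCCAC. The windows of Mvd, Cyp51, Msmo1 and Insig1, which hold CCAAT, were added after their values were seen. Capitals mark TCACNCCAC and CCAAT on either strand, so that ATTGG is CCAAT read on the other strand.
Hmgcs1 (chr13:119690101-119690400, plus strand): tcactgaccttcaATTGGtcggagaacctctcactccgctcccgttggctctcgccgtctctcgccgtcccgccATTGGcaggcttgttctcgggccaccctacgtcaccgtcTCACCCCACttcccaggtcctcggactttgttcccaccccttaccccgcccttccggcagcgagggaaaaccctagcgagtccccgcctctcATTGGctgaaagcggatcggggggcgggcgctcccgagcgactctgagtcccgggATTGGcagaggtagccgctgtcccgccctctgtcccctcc
Mvd (chr8:122443373-122443672, minus strand): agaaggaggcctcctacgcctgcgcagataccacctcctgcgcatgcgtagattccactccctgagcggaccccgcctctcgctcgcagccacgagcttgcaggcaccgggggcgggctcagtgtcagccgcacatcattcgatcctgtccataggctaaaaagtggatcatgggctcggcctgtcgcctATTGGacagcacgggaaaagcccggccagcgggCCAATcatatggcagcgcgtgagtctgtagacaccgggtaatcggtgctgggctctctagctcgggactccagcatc
Cyp51 (chr5:4104648-4104947, minus strand): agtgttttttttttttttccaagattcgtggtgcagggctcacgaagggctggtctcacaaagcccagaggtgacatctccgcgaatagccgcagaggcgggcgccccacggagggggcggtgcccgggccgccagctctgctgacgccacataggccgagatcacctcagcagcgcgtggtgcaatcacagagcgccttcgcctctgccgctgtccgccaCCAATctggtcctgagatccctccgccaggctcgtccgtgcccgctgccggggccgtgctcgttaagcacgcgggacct
Msmo1 (chr8:64733529-64733828, minus strand): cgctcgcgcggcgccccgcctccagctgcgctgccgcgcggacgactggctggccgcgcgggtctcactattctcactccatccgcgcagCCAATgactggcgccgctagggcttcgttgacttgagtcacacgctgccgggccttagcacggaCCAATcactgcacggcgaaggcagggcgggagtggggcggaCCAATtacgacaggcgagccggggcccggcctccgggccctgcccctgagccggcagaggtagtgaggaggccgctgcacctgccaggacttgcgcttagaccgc
Insig1 (chr5:28071162-28071461, plus strand): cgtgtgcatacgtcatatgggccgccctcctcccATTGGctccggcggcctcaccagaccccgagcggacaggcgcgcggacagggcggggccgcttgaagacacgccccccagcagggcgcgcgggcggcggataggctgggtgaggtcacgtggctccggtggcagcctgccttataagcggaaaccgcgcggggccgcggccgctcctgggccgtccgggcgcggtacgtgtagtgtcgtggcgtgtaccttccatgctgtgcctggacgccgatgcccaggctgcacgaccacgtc

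Counting from the start site as base 1 and from the base before it as base -1, the Hmgcs1 window held TCACCCCAC with its first base at -137, and CCAAT on the other strand at -237, -176, -45 and 11. In the Msmo1 window CCAAT lay at -160, -96 and -55, in Mvd at -60 and -27, in Cyp51 at -29 and in Insig1 at -216, counting both strands. Over the matched genes, CCAAT was in the windows of 16 of 17 sterol enzymes, 4 of 8 regulators and 1 of 4 fatty acid enzymes, against 41.1% of the 27025 genes with a window. GGGCGG was in 15 of 17 sterol enzymes, 6 of 8 regulators and 1 of 4 fatty acid enzymes, against 38.2% of those genes. TCACNCCAC was in 1 of the 29 genes (3.45%), against 1.44%. The matched genes all passed the low-count filter, whereas the 27025 genes with a window outnumber the 15893 that passed it. The shares are therefore not set against expressed genes alone. These are matches of letters, not sites of binding, and in 0 of the 29 genes did matches of different motifs share bases.

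Untrained against sham libraries set the injury alone against its control. Most of the 36 genes had lower levels in untrained libraries, and the lowest log2 fold changes were those of the sterol enzymes Mvd, with -1.44, Dhcr7, with -1.10, Cyp51, with -1.05, and Fdft1, with -1.04. None passed an adjusted p of 0.05 in edgeR's quasi-likelihood test, where the smallest adjusted p of the 36 was 0.825 and where 0.0% of all genes tested passed. At an unadjusted p under 0.05, 12 of the 36 genes were lower and 0 higher, against 4.45% of all genes tested, 2.27% lower and 2.18% higher. The log2 fold change was below 0 for 33 of the 36 genes, against 50.9% of all genes tested. Its median was -0.54 over the 36 genes and -0.01 over all genes. The count of 33 moved with the processing. It was 27 with scaling by total count or without untrained library 1. With limma or without the 3 libraries numbered 1 it was 28, and under the other alternatives it was 30 to 32. By class, the medians were -0.62 for the sterol enzymes, -0.15 for the regulators and -0.54 for the fatty acid enzymes. DESeq2, which called 0.122% of genes, and limma also called none of the 36. Without the low-count filter 1 of the 36 passed in edgeR, where 0.422% of genes passed.

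Of the sterol enzymes, 9 of 20 (45%) were lower at an unadjusted p under 0.05 in untrained against sham libraries. For 7 of 20 (35%) all 3 untrained libraries lay below all 3 sham libraries, against 5.13% of all genes tested. In SBES against untrained libraries the same enzymes had a median log2 fold change of -0.15, with 16 of 20 below 0, against 48.3% of all genes tested. That count was 11 of 20 without SBES library 2 (median -0.02) or without untrained library 3 (median -0.04). With scaling by total count or with limma it was 20 of 20. None of the 20 had an unadjusted p under 0.05 in either direction, against 1.67% of genes lower and 3.7% higher. In SBES against sham libraries their median was -0.95, with 12 of 20 (60%) lower at an unadjusted p under 0.05, against 3.61% of all genes tested, and 7 of 20 (35%) with SBES libraries all below sham libraries, against 6.73%. The 3 comparisons share libraries, so their values are not independent of each other.

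**Figure D1:**
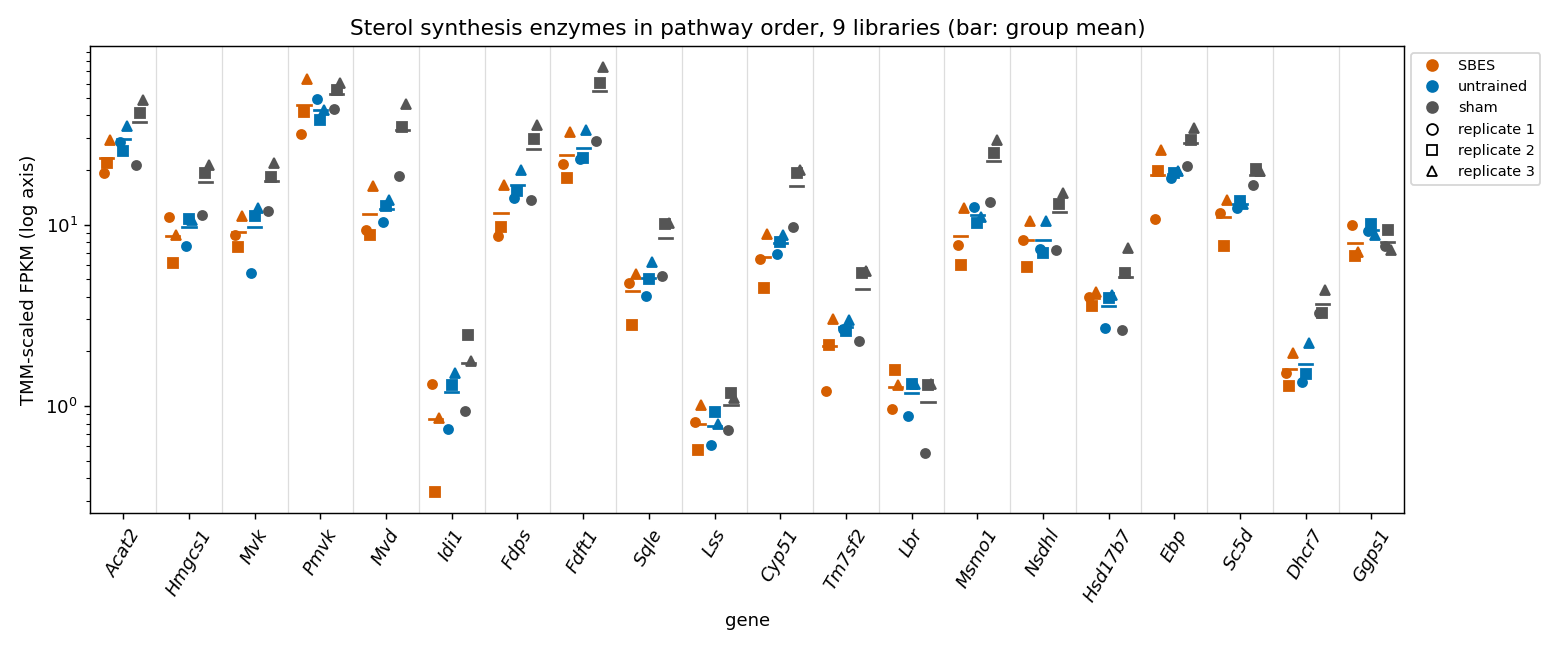
Level (TMM-scaled FPKM, log axis) of the 20 sterol enzymes in pathway order in each of the 9 libraries, with SBES left, untrained in the middle and sham right, symbols for the replicate number and bars for group means. Sham libraries 2 and 3 lie above all 6 injured libraries for 17 of the 20 enzymes, while sham library 1 lies below both of them for 18.

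The early steps make mevalonate and turn it into isoprenoids. Acat2, which joins acetyl-CoA units, had levels of 19.3, 21.7 and 29.1 in SBES, 28.7, 25.6 and 34.95 in untrained and 21.3, 41.2 and 48.4 in sham libraries. Sham library 1 lay between SBES libraries 1 and 2, and the log2 fold changes were -0.32 in untrained against sham and -0.66 (SE 0.30, adjusted p = 0.523) in SBES against sham libraries. Hmgcs1 (ENSMUSG00000093930, chr13:119690379-119708260, plus strand), the synthase that makes HMG-CoA, had levels of 11.1, 6.16 and 8.73 in SBES, 7.60, 10.8 and 10.7 in untrained and 11.4, 19.2 and 21.25 in sham libraries. All 6 injured libraries lay below all 3 sham libraries, with log2 fold changes of -0.84 (SE 0.29, adjusted p = 1.0) in untrained against sham and -1.0004 (SE 0.29, adjusted p = 0.218) in SBES against sham libraries. Mvk, the mevalonate kinase, had levels of 8.81, 7.53 and 11.1 in SBES, 5.40, 11.2 and 12.4 in untrained and 11.95, 18.4 and 21.9 in sham libraries. The SBES libraries lay below all sham libraries, whereas untrained library 3 was above sham library 1. Its log2 fold changes were -0.85 (SE 0.33, adjusted p = 1.0) in untrained and -0.93 (SE 0.33, adjusted p = 0.351) in SBES against sham libraries. Pmvk, which adds the next phosphate, had the highest mean of the sterol enzymes over the 9 libraries, though not in the sham group, where Fdft1 was higher, and averaged 45.5 ± 16.15 in SBES, 43.1 ± 5.71 in untrained and 52.8 ± 8.735 in sham libraries (SD, n = 3 each), ranges that overlap.

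Mvd (ENSMUSG00000006517, chr8:122433601-122443422, minus strand), the decarboxylase that completes isopentenyl diphosphate and whose promoter is shown above, had the lowest log2 fold change of the 36 genes in each comparison with sham libraries. Its levels were 9.34, 8.72 and 16.4 in SBES, 10.3, 12.7 and 13.7 in untrained and 18.55, 34.6 and 46.5 in sham libraries. All 6 injured libraries lay below the lowest sham library, although SBES library 3 and sham library 1 were close. Mvd had a log2 fold change of -1.44 (SE 0.34, adjusted p = 0.825) in untrained against sham, -1.53 (SE 0.34, adjusted p = 0.103) in SBES against sham and -0.09 (SE 0.34, adjusted p = 0.999) in SBES against untrained libraries. With both injured groups set against sham libraries it was -1.49 (SE 0.28, adjusted p = 0.122). DESeq2 gave Mvd adjusted p-values of 0.00523 in SBES against sham and 0.00133 in injured against sham libraries, which pass the threshold.

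Idi1, the isomerase of the pathway, was low and variable, with 0.843 ± 0.497 in SBES, 1.19 ± 0.401 in untrained and 1.72 ± 0.761 in sham libraries (SD, n = 3 each). Fdps, which makes farnesyl diphosphate, had levels of 8.69, 9.66 and 16.5 in SBES, 14.1, 15.3 and 20.04 in untrained and 13.75, 29.5 and 35.2 in sham libraries. Sham library 1 lay inside the range of the injured libraries, while sham libraries 2 and 3 lay above it. Fdps had log2 fold changes of -0.67 (SE 0.35, adjusted p = 1.0) in untrained and -1.17 (SE 0.35, adjusted p = 0.232) in SBES against sham libraries. Ggps1, which makes geranylgeranyl diphosphate on a branch away from sterols, averaged 7.90 ± 1.75 in SBES, 9.36 ± 0.626 in untrained and 8.04 ± 1.10 in sham libraries (SD, n = 3 each). It was 1 of the 2 sterol-class enzymes, with Lbr, whose log2 fold change was above 0 in untrained against sham libraries.

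The middle steps commit the chain to sterols. Fdft1, squalene synthase, had levels of 21.7, 18 and 32.5 in SBES, 23.03, 23.2 and 33.3 in untrained and 28.95, 60.75 and 73.8 in sham libraries. Sham libraries 2 and 3 stood above every other library, but sham library 1 was within the injured range. Fdft1 had log2 fold changes of -1.04 (SE 0.34, adjusted p = 1.0) in untrained and -1.18 (SE 0.34, adjusted p = 0.216) in SBES against sham libraries. Fdft1 overlaps Ctsb on the opposite strand by 774 bases, and the strand setting of the counting is not given in the sources used here, so reads of the abundant Ctsb could be counted to it. Sqle, squalene epoxidase, had levels of 4.76, 2.80 and 5.37 in SBES, 4.06, 5.01 and 6.26 in untrained and 5.20, 10.1 and 10.2 in sham libraries. Here too sham library 1 lay among the injured libraries, and the log2 fold change was -0.73 (SE 0.32, adjusted p = 1.0) in untrained and -0.98 (SE 0.32, adjusted p = 0.292) in SBES against sham libraries. Lss, the cyclase that forms lanosterol, averaged 0.799 ± 0.221 in SBES, 0.7785 ± 0.162 in untrained and 1.01 ± 0.236 in sham libraries (SD, n = 3 each), and its groups overlapped. Smaller overlaps with opposite-strand genes, whose highest counts in a library were 181 to 1918, were found for 4 members. These were Cyp51 with Akap9 (166 bases), Lbr with Dnah14 (440 bases), Ggps1 with Arid4b (257 bases) and Srebf1 with Rai1 (109 bases). Longer opposite-strand overlaps involved genes with a highest count of 0 to 18. Among these were Mvd with Galnt2l (9822 bases), Hmgcs1 with Gm48342 (6190 bases), Lss with 4930483K19Rik (11268 bases) and Acaca with Gm11437 (19126 bases). The effect of these overlaps on the counts was not tested.

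The late steps trim lanosterol to cholesterol. Cyp51 (ENSMUSG00000001467, chr5:4081145-4104746, minus strand), the lanosterol demethylase, had levels of 6.46, 4.50 and 8.85 in SBES, 6.91, 7.98 and 8.80 in untrained and 9.73, 19.3 and 19.9 in sham libraries. All 6 injured libraries lay below all 3 sham libraries, and the log2 fold change was -1.05 (SE 0.31, adjusted p = 1.0) in untrained and -1.31 (SE 0.31, adjusted p = 0.126) in SBES against sham libraries. Tm7sf2 and Lbr encode sterol reductases that catalyse the same step. Tm7sf2 had levels of 1.21, 2.17 and 3.02 in SBES, 2.65, 2.58 and 2.97 in untrained and 2.27, 5.44 and 5.55 in sham libraries, with sham libraries 2 and 3 above all others and sham library 1 below every untrained library. Its log2 fold change was -0.70 (SE 0.37, adjusted p = 1.0) in untrained and -1.05 (SE 0.37, adjusted p = 0.362) in SBES against sham libraries, and it overlaps Vps51 on the same strand by 532 bases. Lbr, which is also a receptor for lamin in the nuclear membrane, averaged 1.275 ± 0.3045 in SBES, 1.18 ± 0.257 in untrained and 1.06 ± 0.440 in sham libraries (SD, n = 3 each), and its groups overlapped.

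Msmo1 (ENSMUSG00000031604, chr8:64718139-64733792, minus strand), the sterol methyl oxidase, had levels of 7.69, 5.98 and 12.3 in SBES, 12.5, 10.2 and 11.01 in untrained and 13.35, 24.8 and 29.3 in sham libraries. The injured libraries all lay below the sham libraries, SBES library 2 was the lowest, and the log2 fold change was -0.9992 (SE 0.32, adjusted p = 1.0) in untrained and -1.38 (SE 0.32, adjusted p = 0.117) in SBES against sham libraries. Nsdhl and Hsd17b7, which complete the removal of the methyl groups, averaged 8.18 ± 2.285 in SBES, 8.27 ± 1.94 in untrained and 11.8 ± 4.04 in sham libraries for Nsdhl and 3.93 ± 0.3665 in SBES, 3.56 ± 0.762 in untrained and 5.14 ± 2.39 in sham libraries for Hsd17b7 (SD, n = 3 each), and both overlapped between groups. Ebp, the sterol isomerase, had levels of 10.8, 19.75 and 25.75 in SBES, 18.1, 19.2 and 19.7 in untrained and 21.05, 29.4 and 34.03 in sham libraries. All untrained libraries lay below all sham libraries, while SBES library 3 lay above sham library 1, and the log2 fold change was -0.57 (SE 0.30, adjusted p = 1.0) in untrained against sham libraries.

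Sc5d, the desaturase of the late pathway, had levels of 11.55, 7.61 and 13.7 in SBES, 12.35, 13.5 and 12.95 in untrained and 16.6, 20.3 and 19.8 in sham libraries. The injured libraries lay below the sham libraries without exception, and the log2 fold change was -0.55 (SE 0.23, adjusted p = 1.0) in untrained and -0.79 (SE 0.24, adjusted p = 0.233) in SBES against sham libraries. Dhcr7 (ENSMUSG00000058454, chr7:143823145-143848410, plus strand), a reductase that makes cholesterol in the last steps, had levels of 1.53, 1.29 and 1.96 in SBES, 1.36, 1.51 and 2.22 in untrained and 3.27, 3.25 and 4.37 in sham libraries. Sham library 1 was here close to sham library 2, and all 6 injured libraries were lower than all 3 sham libraries. The log2 fold change was -1.10 (SE 0.27, adjusted p = 0.884) in untrained against sham, -1.19 (SE 0.28, adjusted p = 0.113) in SBES against sham and -1.14 (SE 0.23, adjusted p = 0.122) in injured against sham libraries. Mvd, Hmgcs1, Cyp51, Msmo1, Sc5d and Dhcr7 were the 6 sterol enzymes for which all 6 injured libraries lay below all sham libraries, against 1.86% of all genes tested.

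In SBES against sham libraries 19 of 20 sterol enzymes had a log2 fold change below 0, with Mvd, Msmo1, Cyp51 and Dhcr7 at log2 fold changes of -1.53 to -1.19. No gene of the 36 had an adjusted p under 0.05 in edgeR, where 0.346% of all genes tested passed. The smallest adjusted p of the 36 were 0.0997 for Elovl6 and 0.103 for Mvd, and 14 of the 36 were lower and 1 higher at an unadjusted p under 0.05, against 3.61% and 5.7% of all genes tested. The number of calls changed with the test. DESeq2 called 5 of the 36, Mvd, Cyp51, Msmo1, Dhcr7 and Elovl6, all lower, where it called 1.89% of genes, and limma called none under either pseudocount. With the replicate number as a block, 4 of the 36 passed, Mvd with an adjusted p of 0.0169, Dhcr7 with 0.0288, Fdps with 0.0461 and Msmo1 with 0.0481, all lower, where 0.831% of genes passed. The labels do not say that libraries of the same number belong together. Without the low-count filter 8 of the 36 passed, where 1.63% of genes passed. Without the 3 libraries numbered 1, 13 of the 36 passed, where 3.58% of genes passed: 11 sterol enzymes and Stard4 were lower and Abca1 was higher in SBES libraries. That fit has 2 libraries per group and drops sham library 1, which lay below sham libraries 2 and 3 for 18 of 20 sterol enzymes. Without sham library 1 alone, only Mvd passed, with an adjusted p of 0.0487, where 0.176% of genes passed.

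The comparison of both injured groups with sham libraries gave 15 of the 36 genes lower and 0 higher at an unadjusted p under 0.05, against 3.57% and 3.91% of all genes tested. None of the 36 had an adjusted p under 0.05 in edgeR, where 0.0944% of genes passed, and the smallest adjusted p was 0.122, for Mvd and Dhcr7. DESeq2 called the same 5 genes as in SBES against sham libraries, where it called 1.07% of genes. Without the 3 libraries numbered 1, 11 of the 36 passed in edgeR, where 2.07% of genes passed. Without the low-count filter 7 passed, where 1.09% of genes passed. Without the libraries numbered 1, untrained against sham libraries gave a single call, Mvd, with an adjusted p of 0.0439, where 0.29% of genes passed.

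Stimulation was compared with injury alone in SBES against untrained libraries. There the sterol enzymes differed little, and 95% intervals include 0 for 35 of the 36 genes. The median log2 fold change was -0.07 over the 36 genes and 0.02 over all genes, and none of the 36 had an adjusted p under 0.05 in edgeR, where 0.0% of genes passed, or in DESeq2, where 0.235% passed. For 16 of 20 sterol enzymes the 95% interval lay within -1 and 1, so that a difference of 2-fold or more in either direction lies outside it. For Mvd it ran from -0.83 to 0.65, for Dhcr7 from -0.69 to 0.51 and for Cyp51 from -0.93 to 0.42. No sterol enzyme had SBES and untrained libraries without overlap, where 4.77% of all genes tested were apart with SBES lower and 5.66% with SBES higher.

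**Figure D2:**
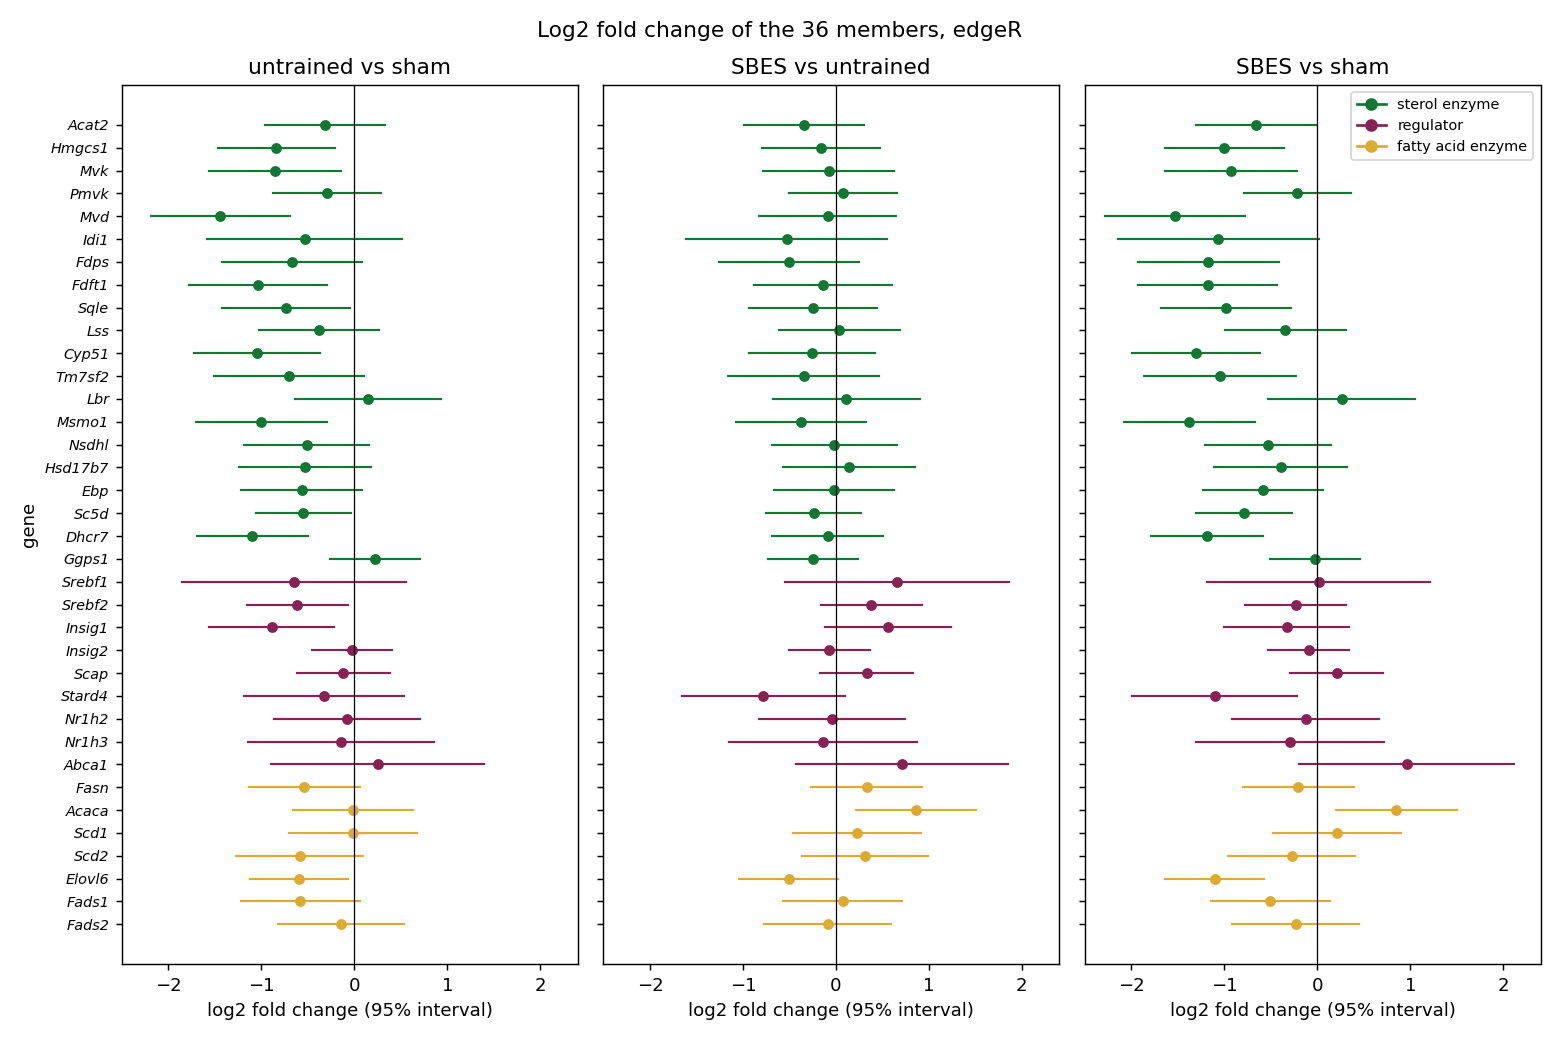
Log2 fold change (points) with its 95% interval (lines) of the 36 genes in 3 comparisons, with the sterol enzymes at the top, regulators in the middle and fatty acid enzymes at the bottom. In untrained against sham and in SBES against sham libraries most sterol enzymes lie left of 0, down to -1.44 and -1.53 for Mvd, and in SBES against untrained libraries their intervals all include 0.

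Among the regulators, the 2 genes with an unadjusted p under 0.05 in untrained against sham libraries were Srebf2 and Insig1, against 2.27% of all genes tested. The median log2 fold change of the 9 regulators in that comparison was -0.15, and it was 0.02 without untrained library 1 and -0.55 without untrained library 3. Srebf2 (ENSMUSG00000022463, chr15:82147181-82205379, plus strand), the SREBP gene that mainly drives sterol enzymes, had levels of 12.4, 12.1 and 13.6 in SBES, 7.35, 10.2 and 11.7 in untrained and 11.1, 14.6 and 19.1 in sham libraries. Untrained library 1 was the lowest and sham library 3 the highest, and the groups overlapped narrowly, since untrained library 3 lay above sham library 1. The log2 fold change was -0.61 (SE 0.25, adjusted p = 1.0) in untrained against sham and 0.38 (SE 0.25, adjusted p = 0.993) in SBES against untrained libraries, in which all 3 SBES libraries lay above all 3 untrained ones. Against sham libraries the SBES libraries differed by -0.23 (SE 0.25, adjusted p = 0.853).

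Insig1 (ENSMUSG00000045294, chr5:28071363-28078662, plus strand), which retains the SREBP complex and is itself a target of the SREBP factors, had levels of 14.35, 8.62 and 14.97 in SBES, 5.65, 8.89 and 11.2 in untrained and 11.3, 18.3 and 18.1 in sham libraries. The untrained libraries all lay below the sham libraries, and SBES libraries 1 and 3 lay within the sham range. Insig1 had a log2 fold change of -0.89 (SE 0.31, adjusted p = 1.0) in untrained against sham, 0.56 (SE 0.31, adjusted p = 0.973) in SBES against untrained and -0.33 (SE 0.31, adjusted p = 0.819) in SBES against sham libraries. Insig2, its relative, was the steadiest of the 36 genes and averaged 12.8 ± 1.415 in SBES, 13.4 ± 0.590 in untrained and 13.65 ± 1.70 in sham libraries (SD, n = 3 each). Scap, the escort protein, averaged 2.85 ± 0.128 in SBES, 2.27 ± 0.550 in untrained and 2.47 ± 0.0449 in sham libraries (SD, n = 3 each), and its SBES libraries lay above all others. SBES libraries lay above all sham libraries for 7.1% of all genes tested. The escort gene had a log2 fold change of 0.33 (SE 0.23, adjusted p = 0.993) against untrained libraries.

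Srebf1, whose products drive mainly fatty acid genes, was among the most variable of the 36 genes. Its levels were 52.1, 47.4 and 15.7 in SBES, 25.04, 18.55 and 29.25 in untrained and 76.7, 14.8 and 22.6 in sham libraries. Sham library 1 was the highest and sham library 2 the lowest of all 9, so that the sham group alone spanned the whole range. The log2 fold change was -0.65 (SE 0.55, adjusted p = 1.0) in untrained against sham and 0.66 (SE 0.55, adjusted p = 0.996) in SBES against untrained libraries. Without sham library 1 the value in untrained against sham libraries turned to 0.41, and without the 3 libraries numbered 1 it was 0.38.

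Stard4, a carrier of cholesterol between membranes, had levels of 1.62, 0.580 and 0.864 in SBES, 1.02, 1.81 and 2.35 in untrained and 1.62, 2.66 and 2.19 in sham libraries. SBES library 2 was the lowest of all, and the log2 fold change was -1.11 (SE 0.41, adjusted p = 0.384) in SBES against sham and -0.33 (SE 0.39, adjusted p = 1.0) in untrained against sham libraries. The liver X receptor genes averaged 15.4 ± 5.63 in SBES, 15.9 ± 4.64 in untrained and 16.8 ± 6.325 in sham libraries for Nr1h2 and 1.73 ± 0.227 in SBES, 1.91 ± 1.06 in untrained and 2.095 ± 0.923 in sham libraries for Nr1h3 (SD, n = 3 each), with wide overlap. Abca1, the exporter they control, averaged 2.52 ± 1.02 in SBES, 1.535 ± 0.1305 in untrained and 1.31 ± 1.23 in sham libraries (SD, n = 3 each). Sham library 1 had an Abca1 level of 2.72, above all 3 untrained libraries, while sham libraries 2 and 3 had the lowest levels, 0.514 and 0.693. Its log2 fold change was 0.96 (SE 0.53, adjusted p = 0.643) in SBES against sham libraries with all 9 libraries. It was 2.07 without sham library 1, 0.57 without sham library 2 and 1.83 (adjusted p = 0.0121) without the 3 libraries numbered 1.

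The fatty acid enzymes did not share a direction in SBES libraries. In SBES against sham libraries Elovl6 was lower and Acaca higher at an unadjusted p under 0.05, each 1 of the 7 enzymes, against 3.61% and 5.7% of all genes tested. Elovl6 (ENSMUSG00000041220, chr3:129532355-129638495, plus strand), which elongates saturated fatty acids, had levels of 1.54, 1.43 and 1.48 in SBES, 2.45, 2.28 and 1.58 in untrained and 3.74, 2.76 and 3.08 in sham libraries. All SBES libraries lay below all untrained ones, and all untrained ones below all sham ones. Elovl6 had a log2 fold change of -1.10 (SE 0.25, adjusted p = 0.0997) in SBES against sham, -0.60 (SE 0.24, adjusted p = 1.0) in untrained against sham and -0.51 (SE 0.24, adjusted p = 0.943) in SBES against untrained libraries. DESeq2 gave Elovl6 an adjusted p of 0.00654 in SBES against sham libraries.

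Acaca (ENSMUSG00000020532, chr11:84129672-84401651, plus strand), the carboxylase that makes malonyl-CoA, had levels of 1.59, 0.798 and 1.22 in SBES, 0.722, 0.681 and 0.570 in untrained and 0.866, 0.505 and 0.645 in sham libraries. All SBES libraries lay above all untrained libraries, with SBES library 1 the highest and SBES library 2 below sham library 1. Acaca had a log2 fold change of 0.87 (SE 0.30, adjusted p = 0.875) in SBES against untrained, 0.85 (SE 0.30, adjusted p = 0.35) in SBES against sham and -0.02 in untrained against sham libraries. It was the only one of the 36 genes whose 95% interval in SBES against untrained libraries excluded 0, 0.22 to 1.51, where 5.37% of all genes tested had an unadjusted p under 0.05.

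Fasn, the fatty acid synthase, had levels of 4.83, 3.05 and 3.02 in SBES, 2.10, 3.19 and 3.35 in untrained and 4.67, 3.17 and 4.71 in sham libraries. The groups overlapped, and the log2 fold change was -0.54 (SE 0.28, adjusted p = 1.0) in untrained against sham and 0.33 (SE 0.28, adjusted p = 0.996) in SBES against untrained libraries. The desaturases Scd1 and Scd2, which make monounsaturated fatty acids, are paralogs on chromosome 19, and how the counting treated reads shared between them is not given in the sources used here. Scd2, the most abundant of the 36 genes, had levels of 79.1, 65.6 and 69.65 in SBES, 29.7, 66.45 and 76.3 in untrained and 98.03, 69.98 and 91.4 in sham libraries. Untrained library 1 was far below the other 8, and without it the fatty acid enzymes had a median log2 fold change of -0.24 in place of -0.54 in untrained against sham libraries. Scd1 had levels of 15.3, 22 and 9.65 in SBES, 8.47, 16.9 and 14.8 in untrained and 12.4, 13.3 and 14.8 in sham libraries, with overlap of all groups and log2 fold changes of -0.01 in untrained and 0.21 in SBES against sham libraries.

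Fads1 and Fads2, the desaturases of polyunsaturated fatty acids, also overlapped between untrained and sham libraries. Fads1 had levels of 12.5, 14.7 and 15.2 in SBES, 8.41, 11.4 and 20.4 in untrained and 18.6, 23.5 and 18.15 in sham libraries, and all SBES libraries lay below all sham libraries. Its log2 fold change was -0.58 (SE 0.29, adjusted p = 1.0) in untrained and -0.51 (SE 0.29, adjusted p = 0.667) in SBES against sham libraries. Fads2 averaged 33.1 ± 7.77 in SBES, 35.3 ± 17.6 in untrained and 39 ± 3.36 in sham libraries (SD, n = 3 each).

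**Figure D3:**
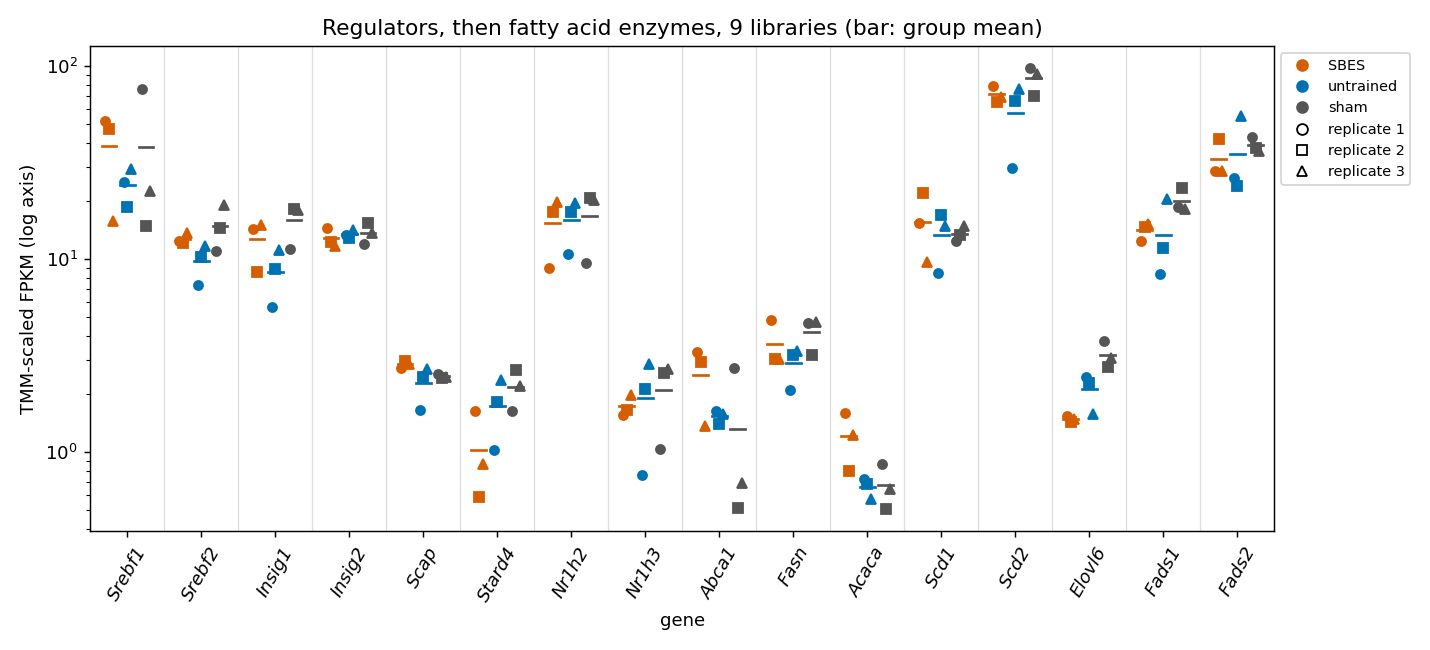
Level (TMM-scaled FPKM, log axis) of the 9 regulators and then the 7 fatty acid enzymes in each of the 9 libraries, with SBES left, untrained in the middle and sham right, symbols for the replicate number and bars for group means. Insig1 has its lowest group mean in the untrained libraries, Elovl6 is lowest in the SBES libraries, where it lies between 1.43 and 1.54, and the sham libraries of Srebf1 spread from 14.8 to 76.7.

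Per library, the geometric mean level of the 20 sterol enzymes was 5.99, 5.18 and 7.99 in SBES libraries 1, 2 and 3, 6.24, 7.24 and 8.18 in untrained libraries 1, 2 and 3, and 7.26, 12.5 and 13.6 in sham libraries 1, 2 and 3. Sham libraries 2 and 3 stood apart, and sham library 1 lay within the range of the injured libraries, a split that was noticed after the values were seen. SBES library 2 had the lowest level for 12 of 20 enzymes and sham library 3 the highest for 14. Sham library 1 lay below sham libraries 2 and 3 for 6 of 9 regulators, and sham libraries 2 and 3 both lay above all 6 injured libraries for 3 of 9. The geometric mean of the regulators was 6.86, 6.12 and 5.73 in SBES, 4.25, 5.71 and 6.93 in untrained and 6.33, 6.26 and 6.74 in sham libraries. That of the fatty acid enzymes was 9.31, 8.75 and 7.91 in SBES, 5.96, 7.89 and 9.07 in untrained and 10.8, 8.99 and 10.1 in sham libraries, where sham library 1 was the highest. Without sham library 1 the median log2 fold change of the sterol enzymes was -0.87 in untrained and -1.16 in SBES against sham libraries, and without all 3 libraries numbered 1 it was -0.71 and -1.09.

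Markers of cell types were read in the same libraries. Of 24 oligodendrocyte and myelin markers, 21 had a log2 fold change below 0 in untrained against sham libraries, against 50.9% of all genes tested, and 5 were lower at an unadjusted p under 0.05, against 2.27%, with none called. Their median log2 fold change was -0.47, and their summed levels were 5797 to 8933 in untrained and 8144 to 15570 in sham libraries. In SBES against sham libraries 17 of the 24 were below 0 and 1 was called, where 0.346% of all genes tested passed, with a median of -0.40. At an unadjusted p under 0.05, 7 of the 24 were lower there, against 3.61% of all genes tested. The summed level in SBES libraries was 6943 to 11050. With both injured groups against sham libraries 21 of the 24 were below 0, with a median of -0.43. There 8 were lower at an unadjusted p under 0.05, against 3.57%, and 1 was called, where 0.0944% of genes passed. In SBES against untrained libraries 15 of the 24 were higher, with a median of 0.12 and none called. The geometric mean of the myelin markers was 46.7, 42.9 and 64.5 in SBES, 32.5, 65.7 and 57.3 in untrained and 70.7, 66.6 and 79.8 in sham libraries 1, 2 and 3. The sterol enzymes divided by this value gave 0.128, 0.121 and 0.124 in SBES, 0.192, 0.110 and 0.143 in untrained and 0.103, 0.188 and 0.170 in sham libraries, and the untrained and sham libraries overlapped, as they did before the division. Untrained library 1 had the highest of these ratios and sham library 1 the lowest. Whether the sterol enzymes differ beside the myelin markers was not tested. Sham library 1 had the highest summed myelin level, 15570, and the lowest sterol enzyme level of the sham libraries.

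Of the other lists in untrained against sham libraries, 10 of 14 neuron markers were lower, with a median log2 fold change of -0.44 and summed levels of 2082 to 2384 in untrained and 2841 to 3744 in sham libraries. Of the 8 motor neuron markers 7 were lower, with summed levels of 108.1 to 174.1 in untrained and 198.0 to 513.4 in sham libraries. The geometric mean of these 8 markers overlapped between the groups. It was 8.85, 6.38 and 6.21 in SBES, 4.57, 8.15 and 7.55 in untrained and 6.53, 10.8 and 11.5 in sham libraries. In SBES libraries the motor neuron sum was 148.3 to 198.3, and sham libraries 2 and 3, which had the high sterol enzymes, had the 2 highest sums, 335.5 and 513.4. Microglia markers were higher in untrained libraries for 11 of 12 and endothelium and pericyte markers for 9 of 10, with medians of 0.43 and 0.64, and the summed microglia level was 853.3 to 2788 in SBES, 1241 to 1345 in untrained and 586.1 to 1514 in sham libraries. Of 12 astrocyte markers 7 were lower, with a median of -0.01, as were 2 of 5 oligodendrocyte precursor markers. At an unadjusted p under 0.05, 5 of 10 endothelium and pericyte, 0 of 12 microglia and 1 of 5 precursor markers were higher, against 2.18% of all genes tested. Lower at that threshold were 4 of 14 neuron, 1 of 8 motor neuron, 2 of 12 astrocyte and 1 of 5 precursor markers, against 2.27%. None of these list members was called in untrained against sham libraries, and none was at 0 in any library. In SBES against sham libraries 1 of the 8 motor neuron markers was called, where 0.346% of all genes tested passed. With both injured groups against sham libraries 1 of the 8 was called, where 0.0944% passed. Of the 14 neuron markers, 7 were lower and 7 higher in SBES against sham libraries, with a median of -0.04 and none called. The part of these cell types in the levels of the sterol enzymes was not tested.

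**Figure D4:**
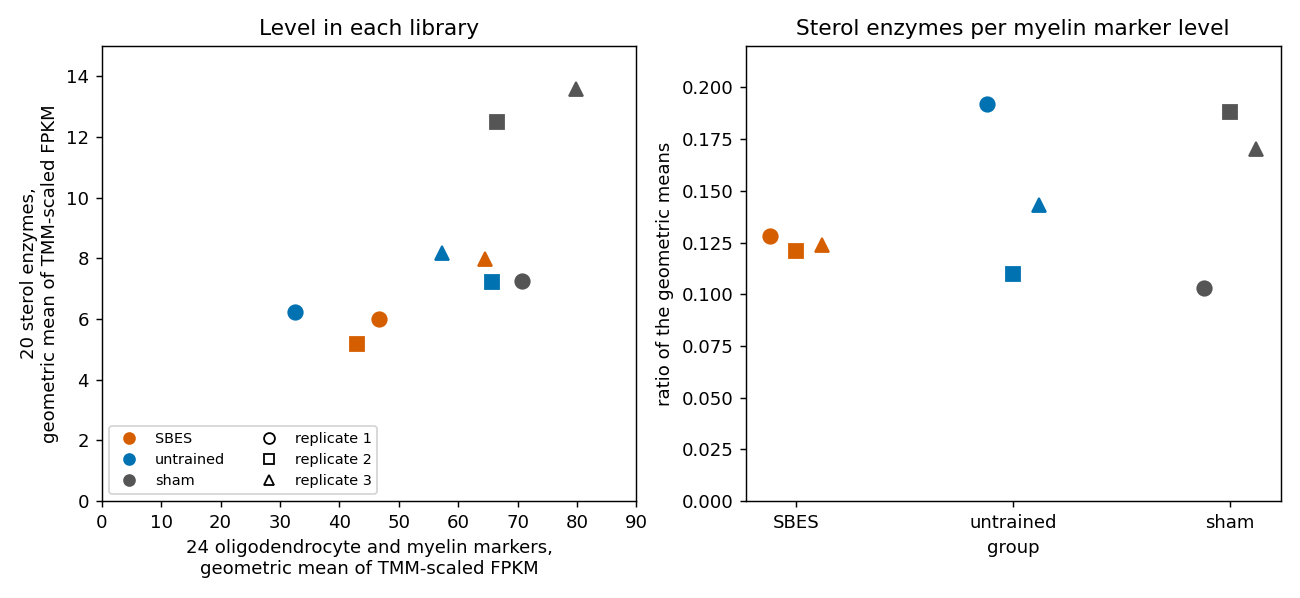
Left, geometric mean level (TMM-scaled FPKM) of the 20 sterol enzymes against that of the 24 oligodendrocyte and myelin markers in each of the 9 libraries; right, the ratio of both by group, with symbols for the replicate number. Sham libraries 2 and 3 lie highest at the left, at 12.5 and 13.6, and the ratio in SBES libraries, 0.121 to 0.128, lies within the ranges of the untrained and sham libraries.

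Other genes of lipid supply and turnover, a list of 28 genes of which 27 were tested, were counted in the same comparisons. In untrained against sham libraries 19 of 27 had a log2 fold change below 0, with a median of -0.11, and 2 were lower at an unadjusted p under 0.05, against 2.27% of all genes tested. Acss2, which makes acetyl-CoA from acetate, averaged 2.63 ± 0.769 in SBES, 2.70 ± 0.551 in untrained and 4.12 ± 1.62 in sham libraries (SD, n = 3 each), with a log2 fold change of -0.61 (SE 0.33, adjusted p = 1.0) in untrained against sham libraries. In SBES against sham libraries 17 of 27 were below 0, with a median of -0.16. At an unadjusted p under 0.05, 3 were lower and 1 higher there, against 3.61% and 5.7% of all genes tested. With both injured groups against sham libraries 19 of 27 were below 0, with a median of -0.19. In that comparison 6 were lower and 0 higher at an unadjusted p under 0.05, against 3.57% and 3.91%, with none called. Erg28, known in yeast as a scaffold of the sterol demethylation enzymes, averaged 9.92 ± 2.29 in SBES, 16.2 ± 1.15 in untrained and 18.9 ± 3.32 in sham libraries (SD, n = 3 each). Its SBES libraries lay below all untrained and all sham libraries, with a log2 fold change of -0.71 (SE 0.23, adjusted p = 0.867) against untrained and -0.93 (SE 0.23, adjusted p = 0.141) against sham libraries. Lrp1, a receptor that takes up lipoproteins, averaged 3.87 ± 0.744 in SBES, 2.46 ± 0.532 in untrained and 2.22 ± 0.769 in sham libraries (SD, n = 3 each). Its SBES libraries lay above all others, with a log2 fold change of 0.65 (SE 0.29, adjusted p = 0.915) against untrained and 0.80 (SE 0.29, adjusted p = 0.362) against sham libraries. Acsl3, which activates long fatty acids, averaged 29.8 ± 14.5 in SBES, 21.7 ± 5.32 in untrained and 23.2 ± 2.07 in sham libraries (SD, n = 3 each), and its groups overlapped. Mid1ip1, a regulator of acetyl-CoA carboxylase, averaged 71.4 ± 35.5 in SBES, 77.1 ± 38.8 in untrained and 125 ± 21.01 in sham libraries (SD, n = 3 each). With both injured groups against sham libraries its log2 fold change was -0.76 (SE 0.33, adjusted p = 0.634).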

How the data were processed

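Per the labels' protocols, the authors aligned paired-end reads with Hisat2 2.0.1 and counted genes with HTSeq 0.6.1, on mm10 per the submitters' processing notes. The authors deposited 1 table with whole-number counts, FPKM (counts per exonic length and library total) and the exonic length of each gene. Recomputed FPKM matched the deposited FPKM within 0.006 for 100% of values. Columns of the sham libraries and of SBES 2 and 3 were matched by name, and those of the 3 untrained libraries and SBES 1 by elimination, so their values rest on that match.

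Counts were tested with edgeR 4.0.16 in R 4.3.3: filterByExpr, TMM, 1 quasi-likelihood fit of 9 libraries with a coefficient per group and no covariate, and Benjamini-Hochberg adjustment over 15893 genes with a threshold of 0.05. SEs were taken from the log2 fold change and its F statistic. The code was tested on simulated data. DESeq2 1.42.0 and limma 3.58.1 on log2(FPKM + 1) or log2(FPKM + 0.1) were alternatives, with other scalings, no filter, a replicate block and libraries left out.

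Deviations of same-numbered libraries from their group means correlated at 0.253, 0.152 and 0.134 between SBES and sham libraries, all above 0.1. SBES library 3 and sham library 2, of different numbers, correlated at 0.1565, so these values do not establish that the numbers pair the groups. Blocked values stand beside that comparison as an alternative. Untrained libraries 1 and 3 correlated with the same-numbered SBES libraries at 0.238 and 0.250, and with the same-numbered sham libraries at 0.379 and 0.210. Untrained library 2 correlated at -0.164 with SBES library 2 and at -0.0016 with sham library 2. Whether the numbers pair the untrained libraries is thus not settled by these values.

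The members, lists and tests were chosen with earlier results of these data known. Values in every library are given for members with an unadjusted p under 0.05 in any comparison and for Srebf1, Srebf2, Insig1, Sqle, Fasn, Scd1 and Scd2. Of the lipid supply list, up to 4 genes of smallest p per comparison were to be named; some of these are not reported here.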

Additional observations from a re-analysis of the deposited data

How the results depend on the processing

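No alternative turned round a value that had an unadjusted p under 0.05: of 2232 alternative values of the 144 log2 fold changes of single genes, 2092 kept their direction, and the 140 that changed it had an unadjusted p above 0.05 to begin with. Counts of calls moved more. In SBES against sham libraries 55 genes were called, and 517 without the low-count filter, 300 with DESeq2, 0 and 25 with limma at pseudocounts of 1 and 0.1, 581 without the libraries numbered 1 and 0 to 86 with single libraries left out. In injured against sham libraries 15 were called, and 345, 170, 0 and 6, 335 and 0 to 11 under the same alternatives. In untrained against sham libraries 0 were called (707 at an unadjusted p under 0.05), and 134 without the filter, 19 with DESeq2, 1 with limma at a pseudocount of 0.1, 1 with scaling by total count and 47 without the libraries numbered 1. In SBES against untrained libraries 0 were called (854 at an unadjusted p under 0.05), and 186 without the filter, 33 with DESeq2, 13 without the libraries numbered 1 and 0 to 1 with single libraries left out. Of the 36 genes, without the filter 8 were called in SBES against sham, 7 in injured against sham and 1 in untrained against sham libraries. DESeq2 called 5 in each of SBES and injured against sham libraries. Without the libraries numbered 1 the calls were 13, 11 and 1, and with single libraries left out they were 0 to 1 in SBES against sham libraries. The cause of these shifts was not tested.

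With the replicate number as a block, 132 genes and 4 of the 36 were called in SBES against sham, 51 genes and 2 of the 36 (Mvd and Dhcr7) in injured against sham, and 4 genes and 0 of the 36 in untrained against sham libraries; it changed no other call.

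The median log2 fold change of the 36 genes in untrained against sham libraries was -0.25 with limma at a pseudocount of 1 and -0.29 at 0.1, against -0.54; the cause was not tested. Scaling by total count moved the median of all genes to 0.18 in untrained against sham and -0.19 in SBES against untrained libraries, and that of the 36 genes to -0.38 and -0.27. Of the genes called in injured against sham libraries, 46.7% were higher, against 100% of 6 with limma at a pseudocount of 0.1. Leaving out untrained library 1 gave the regulators a median of 0.02 in untrained against sham libraries, against -0.15. A fit of only the groups compared is the same fit for injured against sham libraries, so it gave no value there.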
